A study of Mus musculus with 14 samples.

Results

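The genes described here encode the MHC class II antigen presentation machinery of germinal centre B cells: the transactivator Ciita, the invariant chain Cd74, the classical chains H2-Aa, H2-Ab1 and H2-Eb1, the peptide-loading chains H2-DMa, H2-DMb2, H2-Oa and H2-Ob, and the lysosomal thiol reductase Ifi30. These are 10 of the 18193 genes that had at least 1 probe set of their own on the Affymetrix mouse array used. They were measured by every probe set annotated to 1 of them alone, 20 of the 45101 on the array. A further 4 probe sets are annotated to a member together with another gene and were kept apart. The arrays came from splenic germinal centre B cells of 14 mice that differed in Crebbp, the gene of a lysine acetyltransferase and transcriptional coactivator. KO mice were Crebbpfl/fl Cg1-Cre (n = 5, 3 of them male), HET mice were Crebbpfl/+ Cg1-Cre (n = 5, 2 males) and WT mice were Crebbp+/+ Cg1-Cre (n = 4, 1 male). All mice, WT included, carried Cg1-Cre, were of mixed C57BL/6x129Sv background and were 8 to 12 weeks old. Immunisation with sheep red blood cells took place on day 0 and again on day 5, and spleens were taken on day 12. Cells of each mouse were sorted as B220+CD95+PNA+ after B cell enrichment. Cg1-Cre acts in B cells that have been activated, so the floxed alleles were intact earlier in B cell life, and sorted cells that had not recombined would be included.

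MHC class II molecules are pairs of an alpha and a beta chain that display peptides from endocytosed antigen to CD4+ T cells. The chains assemble on the invariant chain, travel to endosomes, and receive peptide with the help of H2-DM, which H2-O restrains in B cells. Transcription of nearly all of these genes depends on CIITA, which does not bind DNA itself but is recruited to a conserved promoter module and in turn recruits acetyltransferases, CREB-binding protein among them. In the germinal centre, B cells that present antigen to T follicular helper cells receive the signals that let them survive and divide again.

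The conserved module contains an X box, bound by the RFX complex, and downstream of it a Y box, an inverted CCAAT element bound by NF-Y. Promoters in RefSeq (GRCm38.p6) were matched for 7 of the 10 genes. Of these, 5 are shown so that the values of these members can be set beside the letters of this module. Each is the 150 bases before a RefSeq start, 5′ to 3′ on the gene's strand, with capitals marking GCAAC, found within known X boxes, and GATTGG, an inverted CCAAT with its flanking bases.
H2-Aa: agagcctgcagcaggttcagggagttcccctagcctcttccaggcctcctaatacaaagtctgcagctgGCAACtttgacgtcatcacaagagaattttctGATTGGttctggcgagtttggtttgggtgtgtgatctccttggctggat
H2-Eb1: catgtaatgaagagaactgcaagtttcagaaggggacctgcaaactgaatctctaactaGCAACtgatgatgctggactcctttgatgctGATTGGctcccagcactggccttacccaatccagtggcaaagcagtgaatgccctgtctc
H2-Oa: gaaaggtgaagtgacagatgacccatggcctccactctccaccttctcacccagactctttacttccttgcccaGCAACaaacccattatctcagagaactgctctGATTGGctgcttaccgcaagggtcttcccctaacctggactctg
H2-Ob: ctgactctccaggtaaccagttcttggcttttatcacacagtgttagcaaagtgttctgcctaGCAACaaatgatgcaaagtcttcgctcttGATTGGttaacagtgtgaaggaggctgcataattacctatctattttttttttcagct
H2-DMb2: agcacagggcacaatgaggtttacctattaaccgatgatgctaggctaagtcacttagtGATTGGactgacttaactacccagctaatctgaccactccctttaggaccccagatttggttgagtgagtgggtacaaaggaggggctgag

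These windows lie on chromosome 17 at chr17:34287824-34287973 on the minus strand (H2-Aa) and, on the plus strand, at chr17:34305717-34305866 (H2-Eb1), chr17:34092229-34092378 (H2-Oa), chr17:34238755-34238904 (H2-Ob) and chr17:34145099-34145248 (H2-DMb2). GCAAC and GATTGG were separated by 27 bases in H2-Aa, 26 in H2-Eb1, 27 in H2-Oa and 24 in H2-Ob. The H2-DMb2 window held GATTGG without GCAAC, and the windows of H2-DMa and Ifi30 lacked the ordered pair. These motifs were chosen after these promoters had been read. Among all 32851 RefSeq promoter windows, searched on both strands over the 250 bases before the start, 29.9% held GCAAC, 14.6% held GATTGG, and 0.381% held GCAAC followed 15 to 40 bases later by GATTGG.

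All values are log2 intensities as deposited, and a log2 change of -1 is a halving. Changes are from limma with sex as a covariate, over the 22518 probe sets whose mean exceeded 6.43, the median of all non-control probe sets. Adjusted p-values (Benjamini-Hochberg) cover the whole of this set, and the threshold was 0.05. Of the 20 members, 19 passed this filter. The remaining one, H2-Aa 1443783_x_at, averaged 5.46 in KO, 5.69 in HET and 5.82 in WT mice and was not tested. The number of arrays limits the precision, and 1 array came from each mouse. Over the tested probe sets KO 3 stood somewhat apart, with a median correlation to the other arrays of 0.975, where the other 13 had 0.983 to 0.988.

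Crebbp was lower on average in KO mice on each of its 4 probe sets. On 1436983_at it was 9.42 ± 0.10 in KO mice (SD, n = 5), 9.95 ± 0.17 in HET mice (SD, n = 5) and 10.29 ± 0.08 in WT mice (SD, n = 4), a limma KO change of -0.86 (SE 0.093, adjusted p = 0.00082). The probe sets 1434633_at (-0.47, adjusted p = 0.0497) also passed the limma test, and 1435224_at (-0.41, adjusted p = 0.0719) and 1459804_at (-0.30, adjusted p = 0.462) did not. Their position relative to the deleted exons was not analysed here, so residual signal in KO mice measures neither remaining protein nor unrecombined cells.

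In KO against WT mice the class II genes had lower average levels almost throughout, by small amounts. Of the 19 tested probe sets, 18 had a change below 0. Their median was -0.24 and their range -0.52 to 0.13, while over all tested probe sets 50.5% had a negative change and the median was 0.00. One probe set, H2-Ab1 1425477_x_at, passed the adjusted limma threshold, and 0.391% of all tested probe sets passed it in that direction (201 probe sets, 0.893%, passed in either). At an unadjusted limma p under 0.05, 13 of the 19, from 8 genes, were lower in KO mice, where 5.09% of all tested probe sets were. Every KO mouse lay below every WT mouse for 12 of the 19 probe sets, from 9 of the 10 genes, where 2.68% of all tested probe sets showed this. In bulk RNA of sorted cells, fewer cells of a kind and less RNA per cell cannot be told apart.

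**Figure D1:**
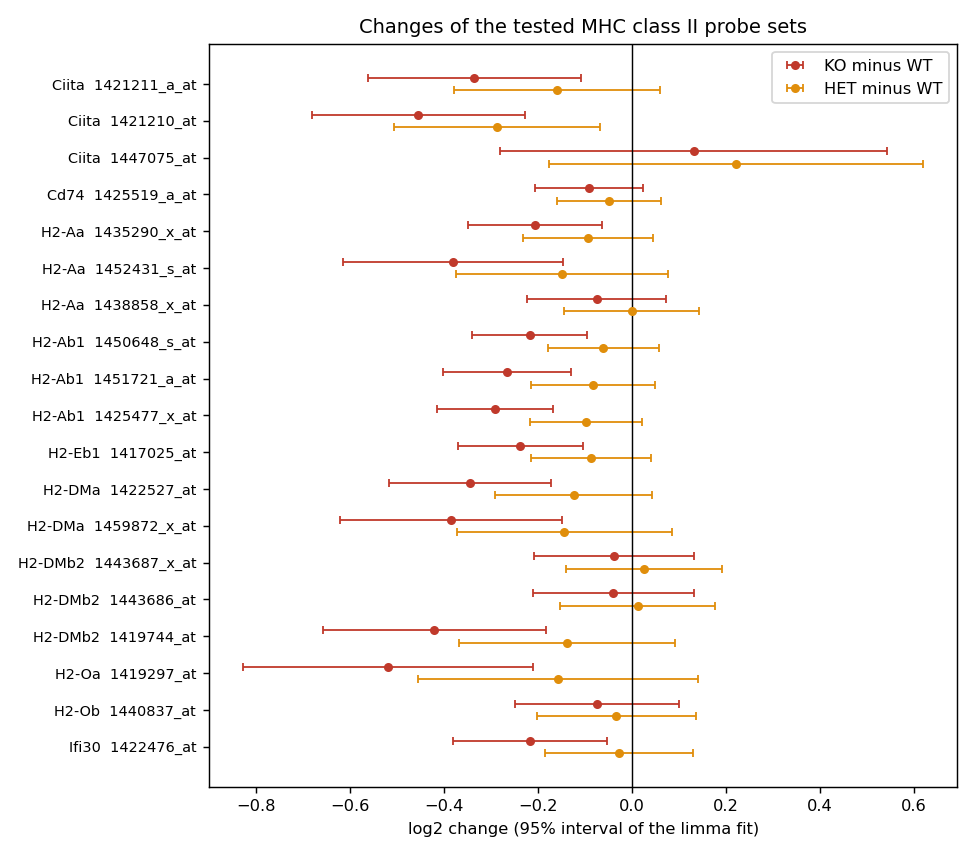
Limma log2 changes with 95% intervals for the 19 tested class II probe sets, KO minus WT (red) above HET minus WT (orange) on each row. All KO changes but that of Ciita 1447075_at lie left of 0, and the HET changes lie nearer 0 than the KO changes for 18 of the 19.

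Ciita, the transactivator, was measured by 3 probe sets that did not agree. The brightest, 1421211_a_at, was 10.51, 10.37, 10.64, 10.54 and 10.58 in KO mice, 10.81, 10.79, 10.77, 10.49 and 10.66 in HET mice, and 10.77, 10.64, 11.02 and 11.05 in WT mice. The highest KO mouse equalled the lowest WT mouse to 2 decimals, and the WT mice spread more widely than the KO mice. Its KO change was -0.34 (SE 0.105, limma adjusted p = 0.202).

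The second Ciita probe set, 1421210_at, was 8.65, 8.96, 8.85, 9.02 and 8.90 in KO mice, 9.09, 9.24, 9.12, 8.80 and 9.02 in HET mice, and 9.34, 9.22, 9.31 and 9.52 in WT mice. All KO mice lay below all WT mice, and HET mice overlapped both. The KO change of -0.45 (SE 0.105) left 73.0% of the WT intensity and missed the threshold with limma adjusted p = 0.0679. In HET mice the change was -0.29, with an unadjusted p of 0.0142 and an adjusted p of 1.0, the only member with an unadjusted p under 0.05 in that comparison. The third probe set, 1447075_at, averaged 8.95 ± 0.30 in KO mice, 8.96 ± 0.38 in HET mice and 8.68 ± 0.40 in WT mice, a KO change of 0.13 (SE 0.191, limma adjusted p = 0.928). The cause of this disagreement was not tested.

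Among the antigen-presenting chains, H2-Ab1, the beta chain of I-A, had a negative KO change on each of its 3 probe sets, and 1 passed the adjusted limma threshold. That probe set, 1425477_x_at, was 11.58, 11.63, 11.73, 11.63 and 11.60 in KO mice, 11.85, 11.93, 11.89, 11.73 and 11.82 in HET mice, and 11.97, 11.99, 11.95 and 11.91 in WT mice. No KO mouse reached any WT mouse, and HET mice lay between, with HET 4 level with KO 3. Its fitted difference of -0.29 (SE 0.057, limma adjusted p = 0.0306) left 81.7% of the WT intensity in KO mice. The adjusted p ranged from 0.0319 to 0.117 when each array was left out in turn, and the call was lost without any 1 of the 4 WT arrays, without HET 3, and without KO 1, KO 2 or KO 4. It was also lost without the filter on low values (limma adjusted p = 0.0866) and with the replicate block (limma adjusted p = 0.0951). The other H2-Ab1 probe sets, 1451721_a_at and 1450648_s_at, changed by -0.27 (limma adjusted p = 0.0745) and -0.22 (limma adjusted p = 0.109), each with all KO mice below all WT mice.

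H2-Aa encodes the alpha chain that pairs with H2-Ab1. Its brightest probe set, 1435290_x_at, was 13.09, 13.17, 12.99, 13.26 and 13.15 in KO mice, 13.26, 13.27, 13.30, 13.20 and 13.23 in HET mice, and 13.35, 13.38, 13.39 and 13.29 in WT mice. Its KO and WT mice did not overlap, and the change of -0.21 (SE 0.066) had a limma adjusted p of 0.218. On 1452431_s_at the values were 12.59, 12.74, 12.21, 12.78 and 12.73 in KO mice, 12.86, 12.90, 12.80, 12.74 and 12.89 in HET mice, and 13.04, 13.03, 12.95 and 12.91 in WT mice, with KO 3 the lowest. There both the KO and the HET mice lay below all WT mice, with changes of -0.38 (limma adjusted p = 0.15) and -0.15. Without KO 3 the KO change was -0.23 (limma adjusted p = 0.145). The KO change of 1438858_x_at was only -0.08 (limma adjusted p = 0.840). Probe sets ending in _x_at or _s_at can take up signal of related sequences, so single values of these chains may mix related genes.

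H2-Eb1, the beta chain of I-E, was 13.42, 13.39, 13.31, 13.44 and 13.41 in KO mice, 13.56, 13.64, 13.60, 13.45 and 13.51 in HET mice, and 13.61, 13.69, 13.66 and 13.61 in WT mice. KO mice lay below both other groups without overlap, and the change from WT was -0.24 (SE 0.061, limma adjusted p = 0.105). C57BL/6 mice are known to lack a functional Ea gene, so that their Eb1 chain has no partner. H2-Ea was below the filter on its 3 probe sets, the brightest of which, 1422891_at, averaged 6.25 in KO, 6.41 in HET and 6.63 in WT mice. H2-Eb2, a related beta chain outside the member list, was 10.88 ± 0.25 in KO mice, 11.28 ± 0.19 in HET mice and 11.42 ± 0.31 in WT mice, with a KO change of -0.47 (limma adjusted p = 0.243).

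Cd74, the invariant chain, varied little between mice. It was 14.18, 14.26, 14.19, 14.26 and 14.21 in KO mice, 14.29, 14.30, 14.26, 14.22 and 14.27 in HET mice, and 14.34, 14.31, 14.32 and 14.31 in WT mice. Each KO and HET mouse lay below each WT mouse, by a small margin. The KO change was -0.09 (SE 0.053, limma adjusted p = 0.659), which is 93.9% of WT.

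**Figure D2:**
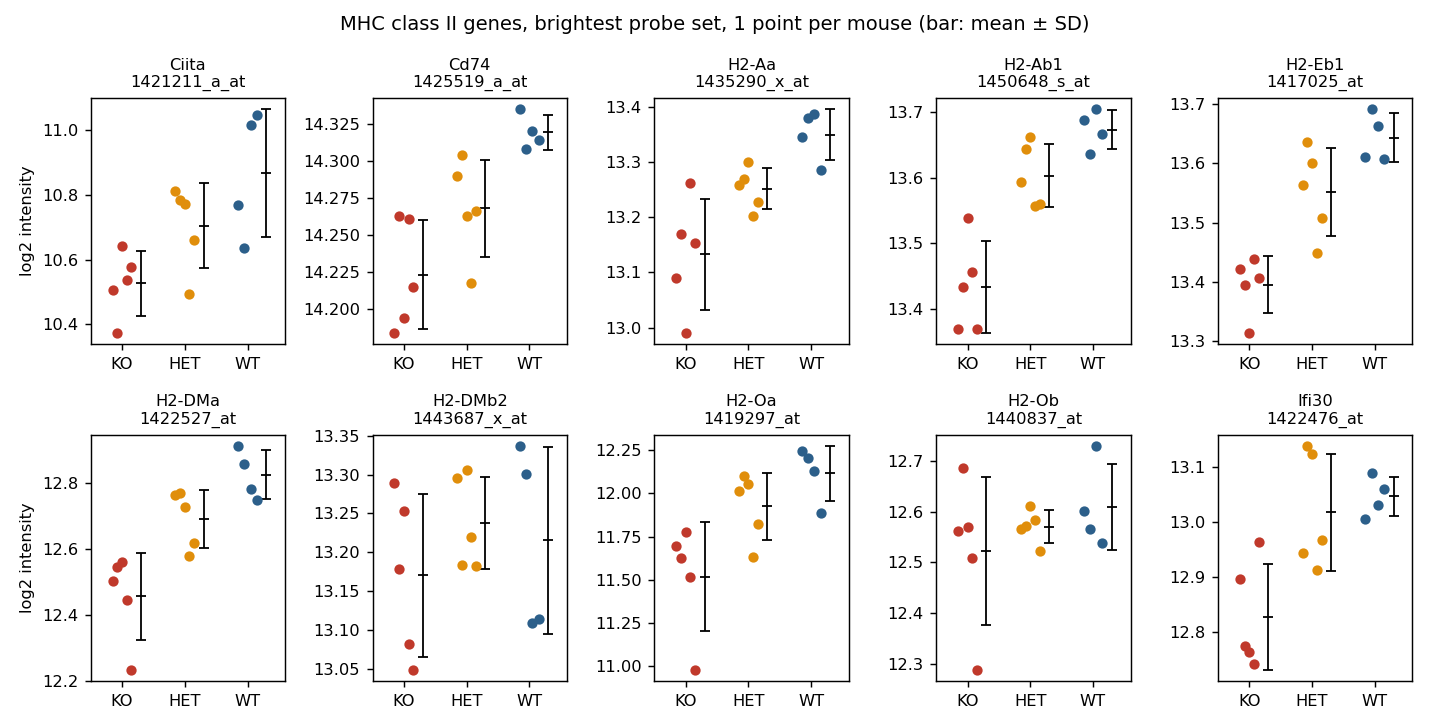
Log2 intensity (y axis, its range differing between panels) of the brightest single-gene probe set of each of the 10 genes, 1 point per mouse, KO, HET and WT from left to right, with mean ± SD beside the points. H2-Eb1 and H2-DMa in KO mice lie below all HET and WT mice, whereas H2-Ob and the brightest H2-DMb2 probe set overlap across all 3 genotypes. The H2-DMb2 panel shows the probe set that differs from 1419744_at.

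H2-DMa, the alpha chain of the peptide-exchange factor H2-DM, was 12.50, 12.54, 12.56, 12.44 and 12.23 in KO mice, 12.76, 12.77, 12.72, 12.58 and 12.62 in HET mice, and 12.91, 12.86, 12.78 and 12.75 in WT mice on 1422527_at. KO mice lay below all others, KO 5 lowest. The change from WT, -0.35 (SE 0.080, limma adjusted p = 0.0682), corresponds to 78.7% of WT. Its dimmer probe set, 1459872_x_at, had a KO change of -0.39 (limma adjusted p = 0.15). There the KO mice ranged from 9.31 to 9.82, and the only male WT mouse, WT 4, lay within that range at 9.71.

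H2-DMb2, a beta chain of H2-DM, gave readings that differed between probe sets. On 1419744_at it was 12.21, 12.14, 11.85, 12.13 and 12.23 in KO mice, 12.45, 12.61, 12.39, 12.16 and 12.40 in HET mice, and 12.69, 12.66, 12.49 and 12.36 in WT mice, a KO change of -0.42 (SE 0.110, limma adjusted p = 0.113). All KO mice lay below all WT mice. On the brighter 1443687_x_at and 1443686_at the KO changes were -0.04 each (limma adjusted p = 0.954 and 0.953), and the genotypes overlapped. Per the platform annotation these 2 probe sets rest on the same expressed sequence tag, and whether they measure H2-DMb2 transcripts was not tested. Probe sets shared by H2-DMb2 and H2-DMb1, 1449580_s_at and 1418638_at, had KO changes of -0.35 (limma adjusted p = 0.0834) and -0.25 (limma adjusted p = 0.123). The cause of the difference between the probe sets was not tested.

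H2-Oa and H2-Ob form H2-O, the B cell inhibitor of H2-DM. H2-Oa was 11.70, 11.63, 11.78, 11.52 and 10.98 in KO mice, 12.01, 12.10, 12.06, 11.63 and 11.82 in HET mice, and 12.24, 12.20, 12.13 and 11.89 in WT mice. Its KO change of -0.52 (SE 0.143, limma adjusted p = 0.134), or 69.7% of WT, was the most negative of the 19. KO mice lay below all WT mice, KO 5 far below the rest. H2-Ob was 12.56, 12.69, 12.57, 12.51 and 12.29 in KO mice, 12.56, 12.57, 12.61, 12.58 and 12.52 in HET mice, and 12.60, 12.57, 12.73 and 12.54 in WT mice. These overlapped, with a KO change of -0.08 (limma adjusted p = 0.882; 95% interval -0.25 to 0.10). The promoters of H2-Oa and H2-Ob printed above both hold the ordered motif pair. A probe set that H2-Ob shares with Gm20506, 1422201_at, had a KO change of -0.09 (limma adjusted p = 0.744). The difference between the H2-Oa and H2-Ob changes was not tested.

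Ifi30 reduces disulfide bonds of antigens in lysosomes. It was 12.90, 12.78, 12.76, 12.74 and 12.96 in KO mice, 12.94, 13.14, 13.12, 12.91 and 12.97 in HET mice, and 13.01, 13.09, 13.03 and 13.06 in WT mice. KO mice lay below WT mice without overlap, HET mice overlapped both, and the KO change was -0.22 (SE 0.076, limma adjusted p = 0.275).

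HET mice differed little from WT mice in the class II genes. Of the 19 probe sets, 16 had a negative HET change, with a median of -0.09, and 0 passed the limma threshold. Over all tested probe sets 0 passed as well, 51.1% had a negative change, and 451 had an unadjusted p under 0.05 in either direction (0.857% of probe sets lower, against 1 of the 19). All HET mice lay below all WT mice for Cd74 and for H2-Aa 1452431_s_at, 2 of 19 probe sets, where 0.382% of all tested probe sets showed this.

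KO mice were lower on average than HET mice on all 19 probe sets, with a median change of -0.17, where 50.2% of all tested probe sets had a negative change. None passed the adjusted limma threshold, nor did any other tested probe set. At an unadjusted p under 0.05, 10 of the 19 were lower in KO mice, where 2.59% of all tested probe sets were lower and 4.62% differed in either direction. KO mice lay below all HET mice for H2-Eb1, H2-DMa 1422527_at and H2-Ab1 1450648_s_at, 3 of 19, where 0.524% of all tested probe sets did so. On the last of these the values were 13.37, 13.43, 13.54, 13.46 and 13.37 in KO mice, and 13.59, 13.64, 13.66, 13.56 and 13.56 in HET mice. These comparisons share arrays, so their values are not independent of one another.

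Taking genotype as the number of floxed alleles (0, 1 or 2), 2 class II probe sets passed the adjusted limma threshold with a fall per allele. H2-Ab1 1425477_x_at changed by -0.15 per allele (SE 0.028, limma adjusted p = 0.0197) and H2-DMa 1422527_at by -0.17 (SE 0.039, limma adjusted p = 0.0473), where 0.542% of all tested probe sets passed in this direction. With each array left out in turn the H2-Ab1 call was kept in 12 of 14 fits and the H2-DMa call in 0 of 14. Neither passed with the replicate number as a block, where the changes were -0.15 (SE 0.032, limma adjusted p = 0.0585) for H2-Ab1 and -0.16 (SE 0.034, limma adjusted p = 0.0587) for H2-DMa. Without the filter on low values the limma adjusted p-values were 0.0616 and 0.1. Ciita 1421210_at changed by -0.23 per allele and lay just past the threshold (limma adjusted p = 0.0506). The median of the 19 trends was -0.12 per allele. The HET level differed from the midpoint of KO and WT for 0 of the 19 probe sets in limma, adjusted or unadjusted, where 0.688% of all tested probe sets had an unadjusted p under 0.05. It lay above the midpoint for 17 of the 19, with a median departure of 0.04, where 11473 of all 22518 tested probe sets lay above it. For H2-Ab1 1425477_x_at the HET level was 0.05 above the midpoint, with a 95% interval of -0.05 to 0.15, so HET levels on either side of the midpoint remain possible. The trend by sex had 0 of 19 passing in limma, adjusted or unadjusted, where 9.53% of all tested probe sets had an unadjusted p under 0.05, and the WT mice held a single male.

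How far the other genes follow Ciita from mouse to mouse was measured with values centred on their genotype means, so that the difference between genotypes does not enter. Over the 14 mice, 0 of the 18 other member probe sets correlated with Ciita 1421211_a_at at an adjusted p under 0.05 in a permutation test of Pearson's r, and the smallest adjusted p was 0.582. The 16 probe sets of other genes had a median r of -0.07, while all 22517 other tested probe sets had a median of 0.05, with 5% below -0.46 and 5% above 0.62. The highest among them was H2-Ab1 1450648_s_at (r = 0.46, permutation p = 0.0679; Spearman's rho = 0.47, permutation p = 0.0622), which was 0.29 without WT 2 and HET 4, the mice farthest from the median of the centred Ciita values, and 0.53 without WT 3 and WT 4, the farthest before centring. For H2-Ab1 1425477_x_at r was 0.30 (rho = 0.14), 0.19 without the first pair of mice and 0.70 without the second, and -0.02 to 0.50 with each mouse left out in turn. H2-DMa 1422527_at had r = -0.04 (rho = 0.01) and H2-Oa had r = 0.02 (rho = 0.07). Without WT 2 and HET 4 these were -0.26 and -0.18, and without WT 3 and WT 4 they were 0.30 and 0.32. The values therefore rest on which mice are included, and 0 of 18 passed without WT 2 and HET 4 as well.

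Without centring, 8 of the 18 passed, with a median r of 0.55 for the 16 against 0.01 for all probe sets. That value includes the difference between genotypes, which Ciita shares with the other genes. With Ciita 1421210_at in place of 1421211_a_at, 1 of 18 passed on centred values, Cd74 (r = 0.79, permutation adjusted p = 0.0374), whose rho did not (adjusted p = 0.180). The 2 Ciita probe sets correlated with each other at r = 0.54 (permutation p = 0.0602, adjusted p = 0.582). Their rho was 0.43 (permutation adjusted p = 0.631). The choice of probe set therefore enters each of these values. The tested genes with the highest centred r to Ciita 1421211_a_at were Ccm2 (0.94), Stxbp2, Hexdc, Dennd6b, Sipa1, Ehmt2, Ankrd11, Dennd3, Zfp692 and Ago2 (0.88), over 14 mice, and none is a class II gene. They were picked as the highest among 22517 probe sets. With Ciita 1421210_at their r was lower, from 0.38 (Ago2) to 0.67 (Ehmt2).

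**Figure D3:**
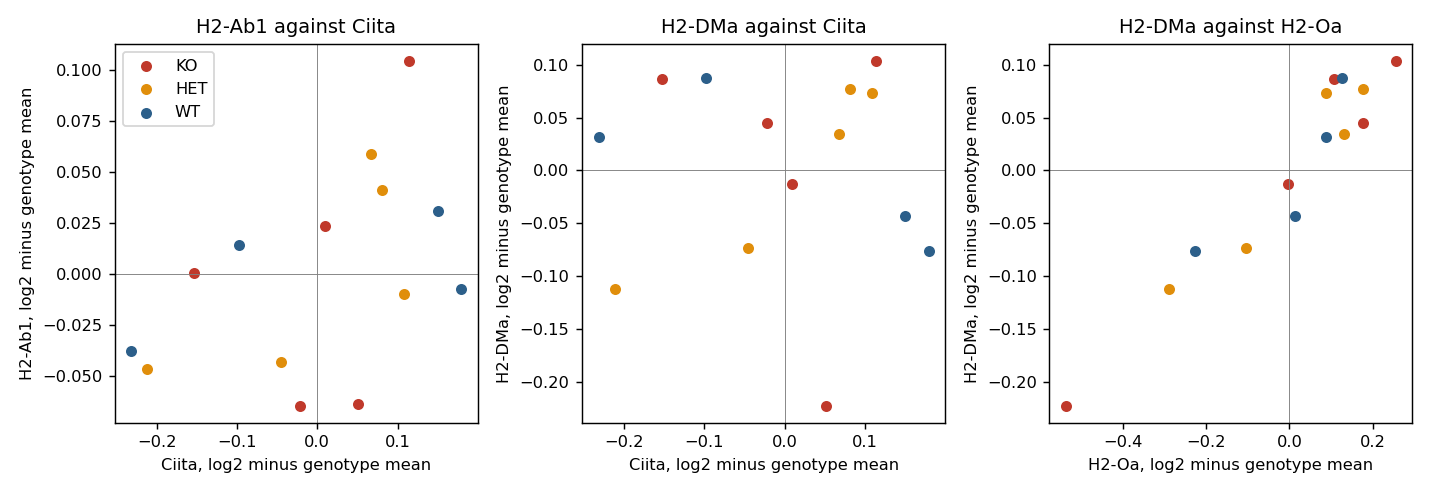
Log2 intensity minus its genotype mean, 1 point per mouse (KO red, HET orange, WT blue), for H2-Ab1 (1450648_s_at) against Ciita (1421211_a_at), H2-DMa (1422527_at) against Ciita, and H2-DMa against H2-Oa. The points scatter in the Ciita panels (r = 0.46 and -0.04) and lie near a line in the H2-Oa panel (r = 0.96), where KO 5 is the lowest point.

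Among the class II genes, H2-DMa and H2-Oa varied together within genotypes. Of the 45 pairs of genes, each by its brightest probe set, 2 passed in a permutation test of Pearson's r adjusted over the pairs. H2-DMa and H2-Oa had r = 0.96 (rho = 0.88; permutation adjusted p = 0.0009 for r and 0.0225 for rho), and r = 0.91 without WT 1 and KO 5. Leaving out each mouse in turn gave 0.91 to 0.97, and r was 0.87 without HET 4 and KO 5, the farthest in centred H2-DMa. With H2-DMa 1459872_x_at in place of 1422527_at, r with H2-Oa was 0.75. On its brightest probe set, 1450648_s_at, H2-Ab1 had r = 0.59 with H2-Oa and 0.56 with H2-DMa 1422527_at. On 1451721_a_at these were 0.84 and 0.78, and on 1425477_x_at 0.68 and 0.66. H2-Aa and H2-Eb1 had r = 0.70 (rho = 0.70, permutation adjusted p = 0.0308 for r and 0.107 for rho). This r was 0.73 without KO 1 and KO 3, and 0.65 without KO 3 and KO 4, the farthest in centred H2-Aa. With H2-Aa 1452431_s_at and 1438858_x_at in place of 1435290_x_at, r with H2-Eb1 was 0.56 and 0.35. H2-DMb2 had r = 0.71 with H2-DMa and 0.67 with H2-Oa (permutation adjusted p = 0.0881 each) on 1443687_x_at. With its other probe set, 1419744_at, r was 0.18 and 0.17, so these values depend on the probe set chosen.

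**Figure D4:**
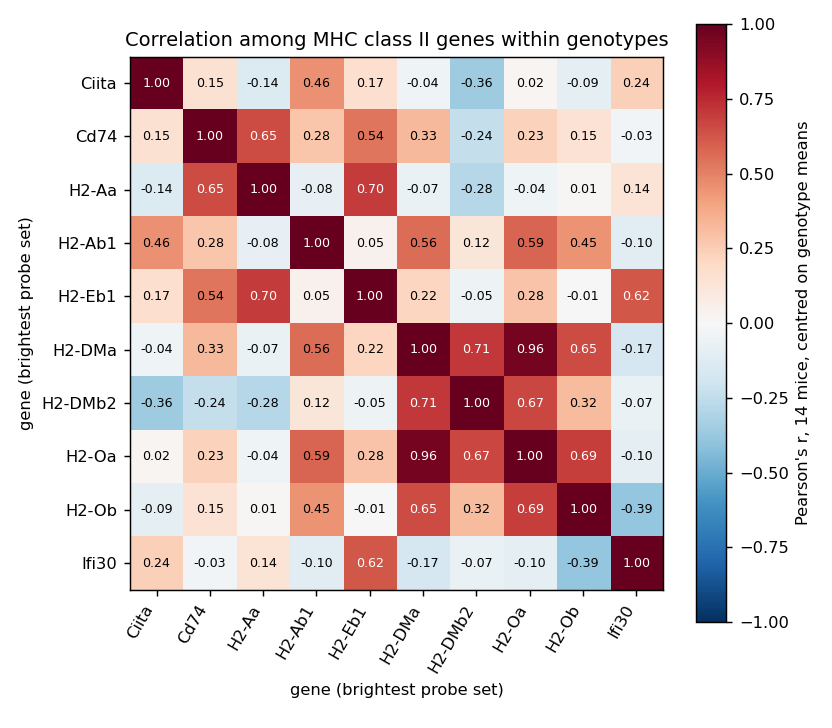
Pearson's r over 14 mice between the brightest probe sets of the 10 genes, centred on genotype means, from blue (-1) to red (1). H2-DMa, H2-DMb2, H2-Oa and H2-Ob have r of 0.32 to 0.96 among themselves, and the Ciita row lies between -0.36 and 0.46. The values of H2-Ob rest on KO 5. Without this mouse its r is 0.19 with H2-DMa, 0.23 with H2-Oa and -0.03 with H2-DMb2. H2-DMb2 is shown by 1443687_x_at, and its r with H2-DMa, H2-Oa and H2-Ob is 0.18, 0.17 and -0.20 on 1419744_at.

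The other genes of the pathway, each by its brightest probe set, had 0 members passing the limma test in KO against WT, where 0.893% of all tested probe sets passed. Over all tested probe sets 50.5% had a negative KO change, and 5.09% were lower at an unadjusted limma p under 0.05. The factors that bind class II promoters (Rfx5, Rfxap, Rfxank, Nfya, Nfyb, Nfyc and Creb1) had a median KO change of 0.01, with 3 of 7 negative and 0 at an unadjusted limma p under 0.05. Of the candidate regulators of Ciita 9 of 11 were negative with a median of -0.11, and 1, Irf4, had an unadjusted p under 0.05. Irf4, a lymphoid interferon regulatory factor, had 11.45 ± 0.10 in KO mice, 11.60 ± 0.07 in HET mice and 11.76 ± 0.16 in WT mice, a KO change of -0.30 (limma adjusted p = 0.156). Irf8 had -0.22 (limma adjusted p = 0.561).

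Of the genes of antigen processing and class II turnover, 8 of 11 were negative, with a median of -0.05, and at an unadjusted p under 0.05 there were 2 lower (Ctsd and Lgmn) and 1 higher (Marchf8). The ubiquitin ligase Marchf8, which removes class II molecules from the surface, averaged 8.14 in KO, 7.98 in HET and 7.71 in WT mice, a KO change of 0.37 (limma adjusted p = 0.115). Marchf1, on the same list and brighter, averaged 11.47 in KO, 11.55 in HET and 11.48 in WT mice. Its KO change was -0.04 (limma adjusted p = 0.971). Legumain, Lgmn, an endosomal protease, had -0.52 (limma adjusted p = 0.459), and the cathepsins Ctsd and Ctsz had -0.23 and -0.16. MHC class I genes were negative in 9 of 9, with a median of -0.16 and 4 at an unadjusted p under 0.05. Among all tested probe sets 50.5% were negative and 5.09% were lower at that unadjusted limma p. The smallest p was that of H2-K1 with -0.24 (limma adjusted p = 0.157), and Tap2, a subunit of the peptide transporter, had -0.27 (limma adjusted p = 0.271). Hdac3, the deacetylase opposed to CREB-binding protein at many of its sites, had -0.04, and Ep300, its paralogue, had -0.01 (limma adjusted p = 0.995).

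Most markers of B lineage and of germinal centre B cells were bright in all groups, with Pax5 lower at 7.74 in KO, 7.55 in HET and 7.5 in WT mice. The 5 B lineage markers averaged 12.00 to 12.14 in KO, 12.05 to 12.14 in HET and 12.07 to 12.15 in WT mice. Of these, Cd79a had a KO change of -0.18 (unadjusted p = 0.0114, limma adjusted p = 0.258). The 7 germinal centre markers averaged 11.59 to 11.99 in KO, 11.81 to 11.99 in HET and 11.91 to 12.02 in WT mice. Their KO changes were negative in 5 of 7, with a median of -0.15. Among them Rgs13 fell in KO mice (-0.62, limma adjusted p = 0.0369). Fas had -0.22 (unadjusted p = 0.0390, limma adjusted p = 0.458). Bcl6 had 0.00, S1pr2 had 0.02 and Gcsam had -0.02. Dendritic cells and macrophages also express class II genes. Of 7 dendritic markers on the array Itgax, Xcr1, Cd209a and Batf3 were below the median of all probe sets, and the list averaged 6.25 to 6.34 in KO, 6.24 to 6.42 in HET and 6.31 to 6.47 in WT mice. Flt3, a receptor of dendritic cells and their progenitors, was above it, at 10.20 in KO, 10.39 in HET and 10.52 in WT mice (KO change -0.35, unadjusted p = 0.0387, limma adjusted p = 0.456). Zbtb46 and Siglech, also above it, had KO changes of 0.04 (limma adjusted p = 0.977) and -0.02 (limma adjusted p = 0.984). Of 10 macrophage markers 7 had a mean over the 14 arrays below that median, Adgre1 and Csf1r among them. The list averaged 5.97 to 6.95 in KO, 5.67 to 6.88 in HET and 5.82 to 6.58 in WT mice. Csf1r averaged 6.57 in KO, 6.27 in HET and 6.12 in WT mice. Cd68, a lysosomal protein abundant in macrophages, averaged 8.54 in KO, 8.79 in HET and 8.89 in WT mice (KO change -0.34, unadjusted p = 0.0194, limma adjusted p = 0.338). C1qb had a KO change of 0.45 (limma adjusted p = 0.919) and Lyz2 one of -0.23 (limma adjusted p = 0.978). Lyz2 varied widely between mice, at 8.29 ± 1.27 in KO, 8.73 ± 1.61 in HET and 8.34 ± 1.37 in WT mice (SD). Plasma cells switch Ciita off as they differentiate, and their 4 markers averaged 9.82 to 10.12 in KO, 9.81 to 10.16 in HET and 9.83 to 9.99 in WT mice. Of these, Sdc1 averaged 8.67 in KO, 8.42 in HET and 7.93 in WT mice (KO change 0.81, limma adjusted p = 0.072). The remaining plasma cell markers had negative KO changes, Prdm1 with -0.28, Xbp1 with -0.15 and Jchain with -0.06. T cell markers averaged 5.70 to 6.81 in KO, 5.67 to 6.45 in HET and 5.85 to 6.21 in WT mice, and 3 of 5 were below the median.

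Light zone markers, which mark the germinal centre cells that meet T cells, were lower on average in KO mice as well. All 8 had a negative KO change, with a median of -0.28, where 50.5% of all tested probe sets had a negative change. The list averaged 10.50 to 10.81 in KO mice, 10.78 to 10.95 in HET mice and 10.95 to 11.07 in WT mice. The changes differed in size between markers. Cd83 had -0.02 (limma adjusted p = 0.971), Cd86 had -0.14 (limma adjusted p = 0.843) and Cd40 had -0.37 (limma adjusted p = 0.291). Nr4a1, an immediate early gene of B cell receptor signalling, fell by 0.86 on the log2 scale in KO mice (limma adjusted p = 0.0020), and Egr3 had -0.64 (limma adjusted p = 0.0529). Nr4a1 was dim, at 6.22 in KO, 6.71 in HET and 7.01 in WT mice. Its KO mean lay below the filter of 6.43, which it passed only through its higher HET and WT values. The 4 dark zone markers averaged 12.07 to 12.22 in KO, 12.10 to 12.20 in HET and 12.12 to 12.22 in WT mice. Follicular B cell markers averaged 8.66 to 9.33 in KO, 8.78 to 9.45 in HET and 9.16 to 9.37 in WT mice. The 3 of them that were tested had negative KO changes with a median of -0.30, led by Fcer2a, the low-affinity IgE receptor, with -0.36 (unadjusted p = 0.0462, limma adjusted p = 0.491), and Cr2, a complement receptor, with -0.30 (limma adjusted p = 0.562). The part of the B lineage, germinal centre, dendritic, macrophage, plasma cell, light zone and follicular markers in the class II values was not tested.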

How the data were processed

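RNA of sorted germinal centre B cells was amplified and hybridised to 14 Affymetrix mouse arrays, 1 per mouse, per the labels' protocols. Each deposited value is the log2 intensity of a probe set on an array. Per the submitters' processing notes RMA was used; a version is not given in the sources used here. Its quantile step would hide a change shared by most genes. The platform annotation named 1 gene for 34945 of 45101 probe sets, several for 932 and none for 9160, and 64 were controls. Any pair of arrays had at most 58 values exactly equal as deposited.

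Groups and sex came from the labels. Non-control probe sets with a mean above 6.43 (22518) entered lmFit and eBayes of limma 3.58.1 (R 4.3.3; group and sex, all 14 arrays), with Benjamini-Hochberg adjusted p under 0.05 as threshold. The trend took the number of floxed alleles as a numeric term. Correlations used 100000 permutations within genotypes. The scripts were tested on simulated data. Every member probe set is reported, and other genes were named as up to 4 per list with the smallest p, plus the 10 most correlated with Ciita. Markers of other cell types below the filter, which have no p, were named besides to show which defining markers were dim. Cd83 and Cd86 were named besides as light zone markers with small changes. Bcl6, S1pr2, Gcsam and Marchf1 were likewise named as members of their lists with small changes. Members and lists were chosen with earlier results of these data known. Alternatives changed the filter, probe set choice, normalisation, sex term, limma options, arrays and the replicate block. Same-numbered HET and WT arrays deviated together from their group means (r = 0.242 to 0.438). These values were not adjusted for sex, which most same-numbered HET and WT arrays share. Differently numbered arrays were not compared either. The values therefore cannot show whether the numbers pair the arrays, and the labels state no shared litter or day. With the replicate block, 0 class II probe sets were called in HET against WT, as without it.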

Additional observations from a re-analysis of the deposited data

Results flagged for a closer look

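Of 60 combinations of a class II probe set and genotype, 1 held a mouse far from the others by Dixon's criterion: KO 3 on H2-DMb2 1419744_at, at 11.85, with a gap to the nearest KO mouse of 0.729 of the range. Chance gives about 1 in 20 such groups.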

How the results depend on the processing

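In KO against WT, 18 of 19 class II changes were negative in each fit that left out 1 array, and the median change lay between -0.25 and -0.22 over the alternatives run. The number of probe sets passing, 1 as reported, depended on the setting. It was 0 with no filter, with females alone, with only the groups compared, with the replicate block and without KO 3 and WT 4; 3 of 10 with 1 probe set per gene (H2-Eb1, H2-DMa and H2-Ab1); 4 without the sex term; and 5 with limma's trend and robust options. Leaving out each array in turn gave 0 to 2, and 94 to 223 of all tested probe sets against 201. For the trend, 2 as reported, it was 0 with no filter, with females alone, with the replicate block and without KO 3 and WT 4; 1 with array weights; 3 with 1 probe set per gene; 4 with arrays centred on their median; 5 with a filter at 8; and 7 without the sex term and with limma's trend and robust options. Leaving out each array gave 0 to 2. In HET against WT, KO against HET, the midpoint and the trend by sex, 0 passed under each alternative run. Same-numbered KO arrays had r of -0.178 to 0.429 with HET and WT arrays, which cannot show whether the numbers pair them. With the block the KO change of H2-Ab1 1425477_x_at was -0.29 (SE 0.065, adjusted p = 0.0951). The trend of H2-DMb2 1443687_x_at was 0.00041 without KO replicate 4 (adjusted p = 0.997), and leaving out each array in turn gave -0.04885 to 0.00041. With uncentred values 8 of 18 correlations with Ciita passed, and 1 with Ciita 1421210_at. Without WT 2 and HET 4, a choice made after seeing the data, 0 passed. Apart from fewer arrays or another number of probe sets tested, the causes were not tested.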
